A study of Mus musculus with 12 samples.

Results

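Expression of 8 genes of mitochondrial uncoupling and heat production was followed in cultured mouse cells treated with olanzapine, an atypical antipsychotic, alone or together with a metabolite of vitamin D3. The genes were Ucp1, Ucp2, Ucp3, Dio2, Prdm16, Elovl3, Adrb3 and Ebf2. They were taken by symbol, whatever their values, from the 18539 genes that the tables of the 3 cell types list between them. All 8 were listed in hepatocytes and in adipocytes and 6 in C2C12 cells, where Ucp1 and Prdm16 were not listed. The 12 libraries of poly(A) RNA covered primary hepatocytes and primary adipocytes of C57BL6/J mice and myotubes of C2C12, an established mouse muscle line, with 1 library for each of 4 treatments per cell type. Vehicle cultures received vehicle for 36 h. Olanzapine cultures received vehicle for 24 h and then olanzapine (1 μM) for 12 h. Co-treated cultures received calcifediol (10 μM), the circulating metabolite, or calcitriol (0.1 μM), the active metabolite, for 24 h and then the same metabolite with olanzapine for 12 h, so no culture had a metabolite without olanzapine. Hepatocytes came from male mice of 6 to 8 weeks and were kept with dexamethasone and insulin. Adipocytes were differentiated from subcutaneous preadipocytes of neonatal pups with insulin, dexamethasone, 3-isobutyl-1-methylxanthine, triiodothyronine and hydrocortisone, and were then kept for 5 days with insulin and triiodothyronine. C2C12 cells, a line and so 1 origin, were differentiated in horse serum. The treatment medium of hepatocytes was not that of the other cells, so cell type and medium cannot be told apart.

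UCP1 of brown and beige fat lets protons re-enter the mitochondrial matrix without making ATP, which releases the energy of the gradient as heat. Noradrenaline starts this programme through beta-adrenergic receptors and cyclic AMP, and type II deiodinase, the product of Dio2, strengthens it by turning thyroxine into the more active triiodothyronine inside the cell. PRDM16 and EBF2 are transcriptional regulators that set brown and beige identity, ELOVL3 elongates very long chain fatty acids in brown fat, and UCP2 and UCP3 are relatives of UCP1 for which heat production is not the accepted main role.

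The libraries held 15641434 to 19348338 counts. Values are given as counts, as CPM (counts scaled to a common library total) or, where genes are set against each other, as TPM (the same quantity per transcript length). Each cell type held the markers of its label. The 7 hepatocyte markers summed to 74550 to 79383 CPM in hepatocytes and at most 3.37 CPM elsewhere, the 7 adipocyte markers to 13710 to 15707 CPM in adipocytes against at most 71.5 CPM elsewhere, and the 7 myotube markers to 17906 to 19478 CPM in C2C12 cells against at most 5.46 CPM elsewhere. Fibroblast and preadipocyte markers summed to 17944 to 20062 CPM in adipocytes, more than the adipocyte markers, to 8424 to 11416 CPM in C2C12 cells and to at most 107 CPM in hepatocytes. The hepatocyte library with calcitriol stood apart, with 33 counts of Adipoq, 39 of Plin1 and 33 of Retn against 0, 1 and 0 in the olanzapine hepatocytes, and with 253 of the fibroblast gene Col3a1 and 191 of Col1a1 against 10 and 6. In bulk RNA, fewer cells of a type and less RNA per cell cannot be told apart.

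Between treatments the largest differences were those of Dio2 and Ucp3 in C2C12 cells, where Ucp2 moved too. Dio2 rose 27.6-fold with calcifediol and 22.5-fold with calcitriol over olanzapine alone, Ucp3 rose 5.40-fold and 4.62-fold, and Ucp2 was 2.67-fold lower with calcifediol and 1.72-fold lower with calcitriol. A gene was called where its fold was at least 2 and its FDR at most 0.05 in the Audic-Claverie test, which sets the reads of 1 library against those of another. With 1 library per condition that test compares libraries and not conditions, none of these ratios has a replicate check, and intervals cover counting error only. In the calcifediol library 3 of 3 tested members were called, where 11.6% of the 12124 genes tested were. In the calcitriol library 2 of 3 were called, Ucp2 staying under 2-fold, where 8.36% of all genes were. Olanzapine against vehicle gave 0 of 3, with 0.313% of all genes called. Ucp3 reached the TPM of 1 required for testing only in the co-treated libraries, and Adrb3, Elovl3 and Ebf2 did not reach it in C2C12 cells.

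**Figure D1:**
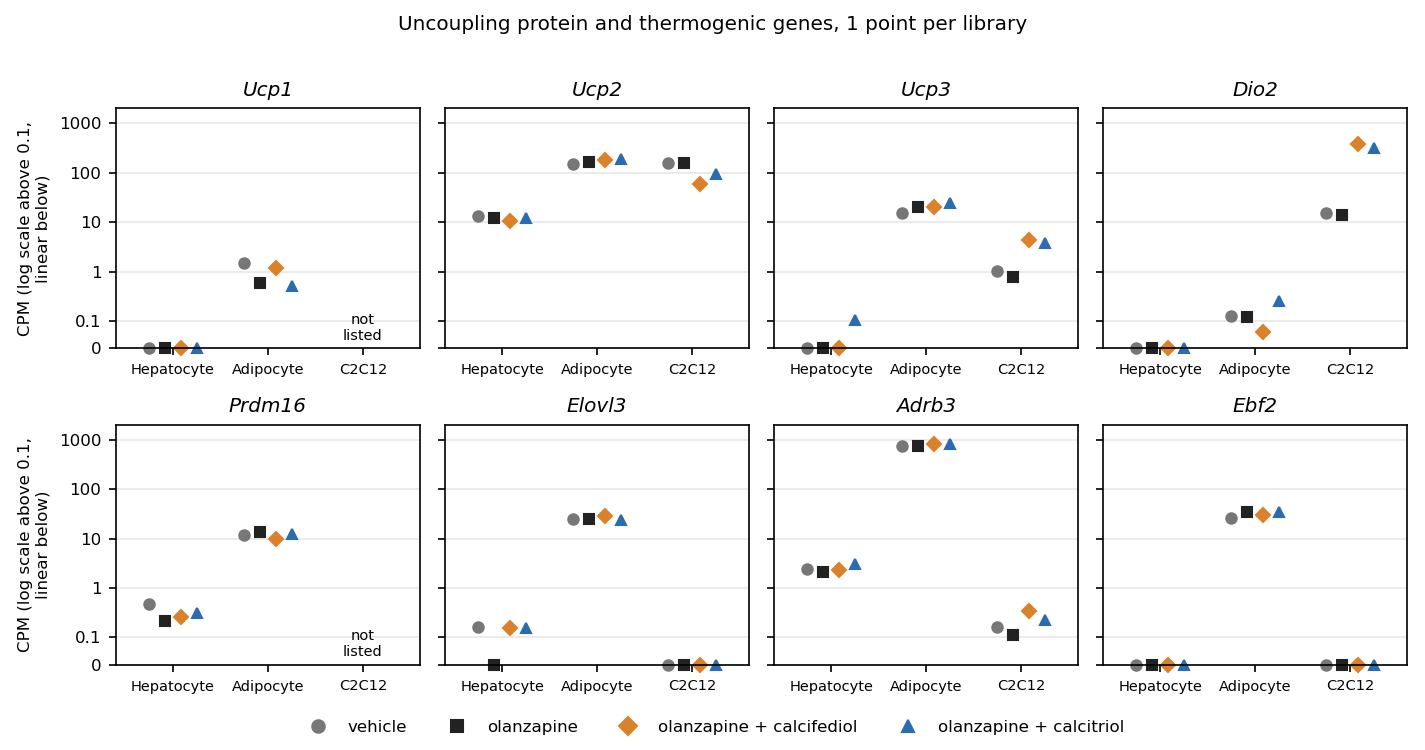
Level of each gene in CPM (vertical axis, logarithmic above 0.1 and linear below) in each of the 12 libraries, by cell type (horizontal axis) and treatment (marker). Adrb3, Elovl3, Prdm16 and Ebf2 stand highest in the 4 adipocyte libraries, while Dio2 stands highest in C2C12 cells, at 384 and 313 CPM with a vitamin D metabolite against 15.5 and 13.9 CPM without.

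Dio2 was the gene of this group with the largest response. Its counts in C2C12 cells were 286 with vehicle, 248 with olanzapine, 6692 with calcifediol and 5631 with calcitriol, or 15.5, 13.9, 384 and 313 CPM. The libraries without a metabolite lay within 1.12-fold of each other, and the lower of the co-treated libraries lay 20.1-fold above the higher of them. The log2 ratio to olanzapine was 4.79 (95% counting interval 4.61 to 4.98) for calcifediol and 4.49 (4.31 to 4.68) for calcitriol. Among the 12124 genes ordered by this ratio, Dio2 took place 57 from the top in the calcifediol library and 66 in the calcitriol library. Both comparisons share the olanzapine library. Against vehicle, which they also share, the log2 ratios were 4.62 and 4.33, and of the 3 tested members 3 were called for calcifediol (11.7% of all genes) and 2 for calcitriol (8.4%). The doses of the metabolites differed, so these values stand side by side and were not compared.

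Outside C2C12 cells Dio2 was close to absent. Adipocytes held 2 counts with vehicle, 2 with olanzapine, 1 with calcifediol and 4 with calcitriol, and each hepatocyte library held 0, which allows up to 0.164 CPM in the shallowest of them (3 counts). Of the other deiodinases, Dio1, which serves the liver, stood at 13.4 to 21.6 TPM in hepatocytes and at 0 elsewhere, and Dio3, which inactivates thyroid hormone, stood at no more than 1.02 TPM in any library. Dio2 in C2C12 cells ran from 4.11 to 116 TPM. Hepatocyte Dio1 read 324, 384, 258 and 280 counts in the order vehicle, olanzapine, calcifediol and calcitriol. Its log2 ratio to olanzapine was -0.64 (-0.87 to -0.41) with calcifediol and -0.53 (-0.76 to -0.31) with calcitriol, both under 2-fold. Dio2 overlaps Gm26512, a transcript of the other strand, over 838 bases in GENCODE M21. The sources used here do not give whether counting used strand, so reads of both cannot be told apart.

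The 250 bases upstream of the RefSeq start of Dio2 (GRCm38.p6, chr12:90739039-90739288, minus strand) are shown because Dio2 led the response. The gene itself lies at chr12:90724552-90739038. Capitals mark TGACGTCA, the cyclic AMP response element, found 95 bases before the start.

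Dio2: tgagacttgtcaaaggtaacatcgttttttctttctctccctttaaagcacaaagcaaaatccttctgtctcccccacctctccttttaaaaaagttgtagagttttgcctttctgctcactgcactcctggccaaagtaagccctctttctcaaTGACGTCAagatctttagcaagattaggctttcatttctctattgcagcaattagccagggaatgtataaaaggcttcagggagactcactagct

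Each strand of the window was searched for 5 motifs. TGACGTCA occurred in 1.55% of 32851 windows of the same length and TATAAA, which lies 30 bases before the start of Dio2, in 12.4%. AGGTCA, the core of nuclear receptor elements, was not found in the Dio2 window and occurred in 14.0% of all windows. CACGTG (6.02% of windows) and the direct repeat spaced by 3 bases that the vitamin D receptor binds (0.0396%, 13 windows) were also absent. Each copy in that repeat was searched as RGKTCA, a looser form of AGGTCA. Here R is A or G and K is G or T. Of the 8 genes 5 had an entry, namely Ucp1, Ucp2, Ucp3, Dio2 and Prdm16, and none of these windows held the direct repeat. A match is a string of letters and not a shown binding site.

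**Figure D2:**
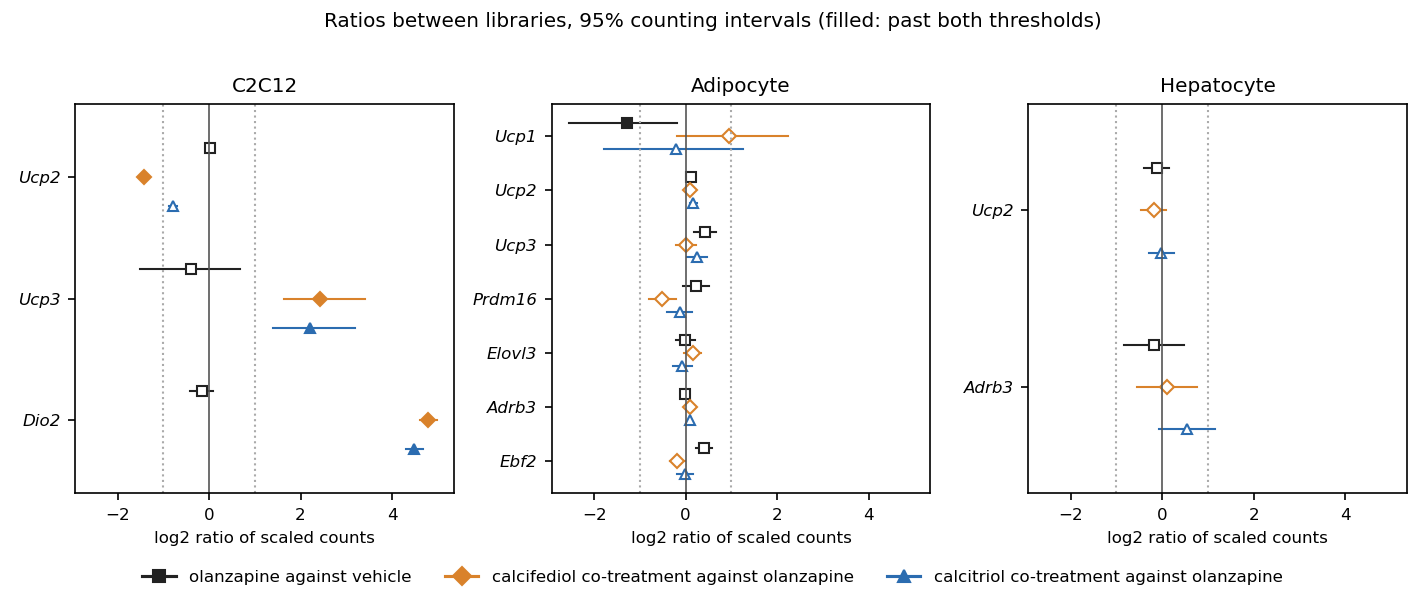
Log2 ratio of scaled counts between libraries (horizontal axis) for each tested gene (vertical axis) in the 3 cell types, with lines for the 95% counting intervals, filled markers for ratios past both thresholds and dotted lines at a 2-fold change. In C2C12 cells Dio2 lies at 4.79 and 4.49 and Ucp2 at -1.42 and -0.79 with the metabolites, whereas in hepatocytes each interval of the comparisons drawn includes 0.

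Ucp2 and Ucp3 moved in opposite directions in C2C12 cells. Ucp2, the most abundant uncoupling protein transcript there, read 2895 counts with vehicle, 2859 with olanzapine, 1044 with calcifediol and 1670 with calcitriol, or 157, 160.0, 59.9 and 92.8 CPM. The co-treated libraries lay below both others, the gap between the nearest values being 1.70-fold. Its log2 ratio to olanzapine was -1.42 (-1.52 to -1.32) in the calcifediol library and -0.79 (-0.87 to -0.70) in the calcitriol library. Ucp3, which muscle expresses and which is tied to fatty acid handling, read 19, 14, 76 and 67 counts in the same order, or 1.03, 0.784, 4.36 and 3.72 CPM. Here the co-treated libraries lay above both others, with a gap of 3.61-fold. The log2 ratio was 2.43 (1.64 to 3.41) with calcifediol and 2.21 (1.40 to 3.19) with calcitriol, with Audic-Claverie FDR of 4.0e-11 and 1.2e-08, and it rested on 14 counts in the reference library. All 3 tested members had co-treated libraries that did not overlap the libraries without a metabolite, as had 64.8% of all genes tested in C2C12 cells. Ucp3 entered the tested genes only through the co-treated libraries, where it was high. Its calls, its FDR values and its place among the 3 therefore add no support.

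Per length the balance of both genes shifted. Ucp2 stood at 202, 201, 76.6 and 121 TPM and Ucp3 at 0.839, 0.619, 3.51 and 3.06 TPM, again in the order vehicle, olanzapine, calcifediol and calcitriol. The ratio of Ucp2 to Ucp3 was 241 with vehicle, 325 with olanzapine, 21.8 with calcifediol and 39.6 with calcitriol. Ucp3 therefore made up 0.414% and 0.307% of the summed TPM of the uncoupling proteins without a metabolite and 4.39% and 2.46% with one.

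The genes are neighbours on the plus strand of chromosome 7 in GRCm38.p6. Ucp3 lies at chr7:100472991-100486432 and Ucp2 at chr7:100493337-100499629, with 6904 bases between them. Their upstream windows, chr7:100472741-100472990 for Ucp3 and chr7:100493108-100493357 for Ucp2, are set out because the neighbours moved in opposite directions. The promoter table takes a later start for Ucp2 (100493358) than the gene record, so the last 21 bases of its window lie inside the gene as given here. Capitals mark AGGTCA.

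Ucp3: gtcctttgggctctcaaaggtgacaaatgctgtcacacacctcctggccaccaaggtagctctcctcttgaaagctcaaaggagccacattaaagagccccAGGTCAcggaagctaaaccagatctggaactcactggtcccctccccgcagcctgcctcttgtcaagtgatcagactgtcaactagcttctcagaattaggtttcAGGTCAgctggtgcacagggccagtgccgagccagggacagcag
Ucp2: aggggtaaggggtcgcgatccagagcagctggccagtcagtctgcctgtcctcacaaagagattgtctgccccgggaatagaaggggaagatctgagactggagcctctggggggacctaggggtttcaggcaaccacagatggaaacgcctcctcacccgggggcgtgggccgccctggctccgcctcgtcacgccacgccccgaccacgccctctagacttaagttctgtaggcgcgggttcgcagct

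The Ucp3 window held AGGTCA at 149 and at 44 bases before the start, and the Ucp2 window held none of the 5 motifs. A transcript of the minus strand, Gm10603, overlaps Ucp3 over 1856 bases and could share its reads.

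**Figure D3:**
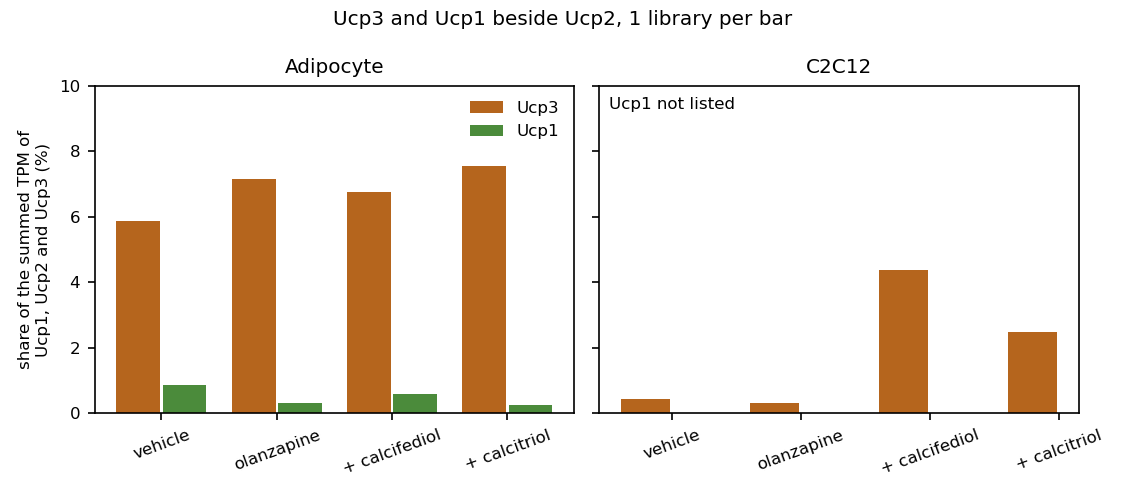
Share of the summed TPM of Ucp1, Ucp2 and Ucp3 that Ucp3 and Ucp1 took (vertical axis, percent) in each library of adipocytes and C2C12 cells, 1 bar per gene and library; Ucp2 makes up the rest. In C2C12 cells the Ucp3 bar is 0.414% and 0.307% without a metabolite and 4.39% and 2.46% with one, and in adipocytes it stays between 5.87% and 7.55%.

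In adipocytes Ucp2 was again the most abundant uncoupling protein transcript per length. It took 92.2% to 93.3% of their summed TPM, Ucp3 5.87% to 7.55% and Ucp1 0.232% to 0.854%. Ucp2 read 2395, 2833, 3077 and 2995 counts (153, 167, 179 and 188 CPM), a range that overlapped that of C2C12 cells (59.9 to 160.0 CPM). Ucp3 read 239, 348, 356 and 390 counts (15.3, 20.5, 20.7 and 24.5 CPM), above every C2C12 library, with medians 8.67-fold apart. The log2 ratios of Ucp2 were 0.13 (0.05 to 0.21) with olanzapine against vehicle, 0.09 (0.02 to 0.17) with calcifediol against olanzapine and 0.17 (0.09 to 0.24) with calcitriol against olanzapine. Those of Ucp3 were 0.43 (0.19 to 0.67), 0.01 (-0.21 to 0.23) and 0.25 (0.04 to 0.47). None reached 2-fold.

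Ucp1 was scarce even in adipocytes. Its counts were 23 with vehicle, 10 with olanzapine, 20 with calcifediol and 8 with calcitriol. These were 1.47 (0.932 to 2.21), 0.591 (0.283 to 1.09), 1.16 (0.709 to 1.79) and 0.502 (0.217 to 0.990) CPM with exact 95% binomial intervals. The intervals of all 4 libraries overlapped. Between olanzapine and vehicle the log2 ratio was -1.28 (-2.55 to -0.19) with an FDR of 0.0482 in the Audic-Claverie test, which made Ucp1 the 1 of 7 tested members called, where 1.22% of the 11804 genes tested were. This call was lost with TMM factors (FDR 0.0547), with median-of-ratios factors (0.0548), with Rplp0 scaling (0.116) and without the filter on low values (0.0635). Calcifediol against olanzapine gave 0 of 7 (1.52% of all genes called), with Ucp1 at 0.94 (-0.19 to 2.23), and calcitriol against olanzapine gave 0 of 7 (0.974%), with Ucp1 at -0.22 (-1.78 to 1.26). Against vehicle, calcitriol gave 1 of 7 (1.38%), Ucp1 at -1.49 (-2.92 to -0.34), and calcifediol gave 0 of 7 (1.52%). Ucp1 reached a TPM of 1 only with vehicle and with calcifediol, and so entered the tested genes only through libraries where it was high. Its calls, its FDR values and its place among the 7 therefore add no support. All 4 hepatocyte libraries held 0 counts of it. The gene lies at chr8:83290348-83298456 in GRCm38.p6.

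The scarcity of Ucp1 contrasted, per length, with some other genes of brown and beige fat in the same adipocytes. Others were scarce too. Of 21 brown and beige fat markers listed, 17 reached a TPM of 1 in any adipocyte library, and Dio2 stood at 0.018 to 0.077 TPM. Ucp1 stood at 0.614 to 1.75 TPM, whereas Cidea, a lipid droplet protein, stood at 109 to 120.1 TPM, and the mitochondrial respiratory subunits Cox7a1 and Cox8b stood at 760 to 842 and 1032 to 1245 TPM. Ppargc1a, the coactivator that drives mitochondrial biogenesis, stood at 3.19 to 3.65 TPM. Cox8b read 2899, 2394, 2936 and 2386 counts in the order vehicle, olanzapine, calcifediol and calcitriol. Its log2 ratio was -0.39 (-0.47 to -0.31) with olanzapine and 0.27 (0.19 to 0.35) with calcifediol against olanzapine. Like Ucp1, Cox8b was thus lower in the olanzapine and calcitriol libraries than in the others, but within 2-fold. The brown and beige fat markers as a list did not share this pattern. Of 17 tested, 10 had ratios above 0 and 7 below with olanzapine (median 0.002). With calcifediol against olanzapine 8 lay above and 9 below (median -0.007).

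Adrb3, the beta-3 adrenergic receptor through which noradrenaline acts on fat cells, was the gene of this group with the most counts in adipocytes. It read 12030 counts with vehicle, 12868 with olanzapine, 14051 with calcifediol and 12880 with calcitriol, or 769, 759.9, 816 and 809 CPM. The 4 libraries lay within a narrow band, and the log2 ratios were -0.02 (-0.05 to 0.02) for olanzapine, 0.10 (0.07 to 0.14) for calcifediol and 0.09 (0.05 to 0.13) for calcitriol. Per length Adrb3 stood at 506 to 554 TPM, above Adrb1 at 2.42 to 3.16 TPM. An antisense transcript, Gm45470, overlaps Adrb3 (chr8:27225776-27230845, minus strand) over 2160 bases.

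Hepatocytes held 45, 39, 44 and 60 counts of Adrb3 and C2C12 cells 3, 2, 6 and 4. The adipocyte median was 337-fold that of hepatocytes. The library with 60 counts was the one with calcitriol that carried adipocyte and fibroblast transcripts. There Adipoq, Plin1, Cfd and Retn summed to 0.109% of their level in the calcitriol adipocytes, a share at which adipocyte Adrb3 would amount to 17.1 counts. The part of these transcripts in the result was not tested.

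The regulators of brown and beige identity were measured in adipocytes. Prdm16 read 185, 234, 167 and 201 counts (11.8, 13.8, 9.69 and 12.6 CPM), and Ebf2, which marks brown and beige precursors, read 409, 585, 526 and 543 (26.1, 34.5, 30.5 and 34.1 CPM). Prdm16 was lowest with calcifediol, at a log2 ratio to olanzapine of -0.51 (-0.81 to -0.22), and Ebf2 was lowest with vehicle, at 0.40 (0.22 to 0.59) for olanzapine against vehicle. Neither passed 2-fold in any comparison.

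In adipocytes the relatives of Ebf2 shared the direction of its ratios. Ebf1 read 1783, 2483, 2169 and 2183 counts, a log2 ratio of 0.36 (0.27 to 0.45) for olanzapine against vehicle, and Ebf3 read 569, 695, 617 and 591, a ratio of 0.17 (0.01 to 0.34). With calcifediol against olanzapine the ratios were -0.22 (-0.30 to -0.14) for Ebf1, -0.18 (-0.35 to -0.01) for Ebf2 and -0.20 (-0.36 to -0.04) for Ebf3. In adipocytes Ebf1 stood at 49.0 to 67.2 TPM, Ebf3 at 13.8 to 16.8 and Ebf2 at 9.80 to 13.7. C2C12 cells held Ebf1 at 6.64 to 10.6 TPM and Ebf3 at 4.28 to 5.59 TPM but 0 counts of Ebf2 in each library, as did hepatocytes. The adipocyte library lowest in Ebf2 was at least 152-fold above both, taking 3 counts per library as the limit that a count of 0 allows. Prdm16 was present at 9, 4, 5 and 6 counts in hepatocytes, and its adipocyte median was 42.8-fold the hepatocyte median. Both genes, Prdm16 at chr4:154316122-154637360 (minus strand) and Ebf2 at chr14:67233292-67430952, overlap transcripts of the opposite strand.

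Elovl3, at chr19:46131897-46135694, varied little among treatments in adipocytes, with 399, 431, 487 and 386 counts (25.5, 25.5, 28.3 and 24.2 CPM). Its log2 ratios were -0.0034 (-0.20 to 0.20) for olanzapine, 0.15 (-0.04 to 0.34) for calcifediol and -0.07 (-0.27 to 0.13) for calcitriol, each interval including 0. Hepatocytes held 3, 0, 3 and 3 counts, and C2C12 cells 0. Elongases of broader distribution exceeded it per length in adipocytes, with Elovl1 at 126 to 136 TPM, Elovl6 at 86.9 to 111 TPM and Elovl5 at 39.7 to 42.2 TPM against 28.2 to 31.9 TPM for Elovl3. In C2C12 cells Elovl6 read 740, 683, 433 and 517 counts, with log2 ratios to olanzapine of -0.62 (-0.80 to -0.45) and -0.41 (-0.58 to -0.25).

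Of all members, 3 of 7 tested in adipocytes (Ucp2, Ucp3 and Adrb3) had co-treated libraries that did not overlap the libraries without a metabolite, each higher, where 14.4% of all genes were higher in this way and 39% did not overlap in either direction. The gaps were at most 1.07-fold. With scaling to Rplp0, which moved the median of all genes by -0.37 for calcifediol and -0.20 for calcitriol, the ratios of Ucp2 and Adrb3 to olanzapine turned negative in both.

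Hepatocytes had 2 members past the filter. Ucp2 read 246, 221, 203 and 231 counts (13.1, 12.1, 10.6 and 11.9 CPM), the lowest level of this gene in the 3 cell types, with log2 ratios of -0.12 (-0.39 to 0.15) for olanzapine, -0.19 (-0.47 to 0.09) for calcifediol and -0.01 (-0.29 to 0.26) for calcitriol. Between calcifediol and vehicle it gave -0.31 (-0.58 to -0.03), an interval that left out 0, with an Audic-Claverie FDR of 0.0895. Adrb3 gave -0.17 (-0.83 to 0.48), 0.11 (-0.55 to 0.77) and 0.54 (-0.06 to 1.16). No call was made (0 of 2 in each comparison, against 0.356%, 0.566% and 0.702% of 10963 genes). The co-treated libraries of Ucp2 lay below both others with a gap of 1.01-fold, which made 1 of 2 members without overlap, where 17.8% of all genes were lower in this way and 32.2% did not overlap in either direction. Ucp3 had 2 counts in the calcitriol library that carried adipocyte and fibroblast transcripts and 0 in the other 3.

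Differences between cell types were tested with edgeR's quasi-likelihood test over the 12 libraries, on the 6 members listed in every table. Treatment was a term, with 6 residual degrees of freedom. The 4 libraries of a cell type differed in treatment and stood in for replicates. The FDR values may therefore leave out variation between preparations of the cells. Adipocytes differed from hepatocytes in 5 of 6 (45.6% of 13331 genes called) and from C2C12 cells in 5 of 6 (44.2%). C2C12 cells differed from hepatocytes in 5 of 6 (48.4%). These 5 included Elovl3, at 0 counts in C2C12 cells and 3, 0, 3 and 3 in hepatocytes. They also included Ucp3, at 0, 0, 0 and 2 counts in hepatocytes. The log2 difference between adipocytes and hepatocytes was 8.24 for Adrb3 (edgeR FDR 3.0e-11) and 3.80 for Ucp2 (FDR 2.7e-07). Between C2C12 cells and hepatocytes Ucp2 differed by 2.88 (FDR 1.9e-06). Adipocytes exceeded C2C12 cells by 3.50 for Ucp3 (FDR 4.4e-06). For Dio2 the difference was -9.93 (edgeR FDR 3.4e-07), with C2C12 cells higher in each of the 4 libraries. Dio2 passed the filter on low counts only through C2C12 cells, and Elovl3 and Ebf2 only through adipocytes. Their calls and FDR values between cell types therefore add no support, and each count of 5 above includes such members. Dio2 in C2C12 cells ran from 13.9 to 384 CPM over the treatments, so this difference averages unlike libraries.

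Ucp2 was the exception between adipocytes and C2C12 cells, with a log2 difference of 0.91 (edgeR FDR 0.0049) that stayed under 2-fold. By median CPM the order of Ucp2 was adipocytes, C2C12 cells and hepatocytes, of which the first pair overlapped. That order did not hold in each treatment, since with vehicle C2C12 cells read 157 CPM and adipocytes 153. With olanzapine they read 160.0 and 167, with calcifediol 59.9 and 179 and with calcitriol 92.8 and 188 CPM. The fitted difference passed 2-fold without the vehicle libraries (1.16), without the olanzapine libraries (1.13) and without the hepatocyte libraries (1.01). It fell to 0.62 without the calcifediol libraries.

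A response shared by the cell types was tested in the same edgeR fit. Of the 6 members 0 passed an FDR of 0.05 for olanzapine (0% of 13331 genes called), 0 for calcifediol (0.015%) and 0 for calcitriol (0.0225%), and at an unadjusted p under 0.05 the counts were 0, 1 and 1. At an FDR of 0.05 DESeq2 and limma gave 0 in each, and at an unadjusted p under 0.05 DESeq2 gave 0 in each and limma 1 for calcitriol. The member at that level in edgeR was Dio2, with log2 differences of 4.63 for calcifediol (edgeR FDR 0.0566) and 4.42 for calcitriol (FDR 0.0501). Because hepatocytes held 0 counts of Dio2 and adipocytes 1 to 4, the reads behind these values lay in C2C12 cells. Dio2 passed for calcitriol without TMM factors (FDR 0.0481) and without the calcifediol libraries (0.0480), for calcifediol without the adipocyte libraries (0.0344), and for both without the filter on low counts (0.0175 and 0.0243).

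**Figure D4:**
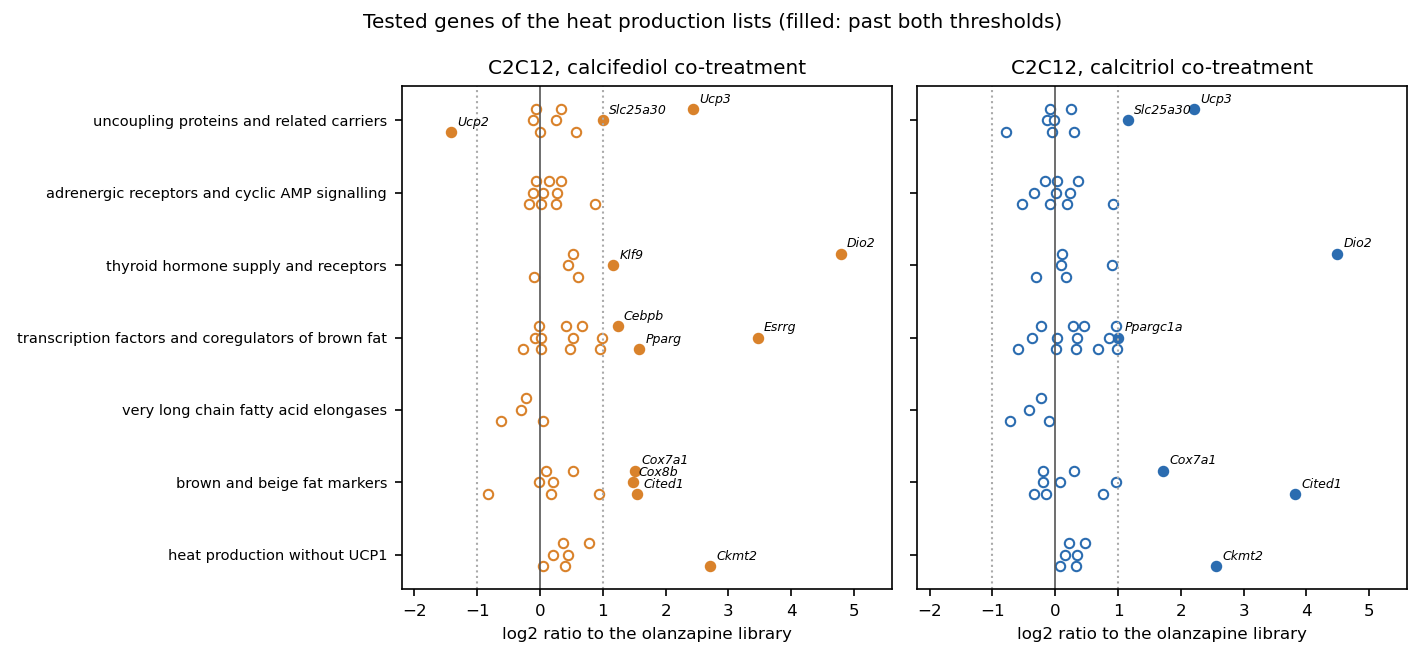
Log2 ratio to the olanzapine library (horizontal axis) of each tested gene of 7 lists on heat production (vertical axis) for the calcifediol and calcitriol libraries of C2C12 cells; filled points passed both thresholds and carry their symbol, and dotted lines mark 2-fold. Dio2 at 4.79 and 4.49 lies farthest to the right in both panels, and Ucp2 at -1.42 is the only filled point on the left.

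Among related genes in C2C12 cells, the list of uncoupling proteins and related carriers had 2 of 9 tested genes higher and 1 lower with calcifediol, members included, and a median log2 ratio of 0.26 beside 0.03 over all genes, of which 5.28% were higher and 6.29% lower. With calcitriol it had 2 higher, 0 lower and a median of -0.02 beside 0.02 over all genes, of which 4.43% were higher and 3.93% lower. The gene called besides Ucp2 and Ucp3 was Slc25a30, a mitochondrial carrier, with 370, 326, 638 and 730 counts and log2 ratios of 1.0 (0.81 to 1.2) and 1.15 (0.96 to 1.35), the first of which fell under 2-fold with vehicle as the reference. The brain-enriched relatives Slc25a14 and Slc25a27 read 100, 90, 105 and 87 counts and 137, 142, 207 and 176 counts, and neither was called.

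On the side of hormone supply, the thyroid list had medians of 0.56 and 0.14. With calcifediol 2 of 6 tested genes were higher (5.28% of all genes) and with calcitriol 1 (4.43%). Besides Dio2 this was Klf9, a target of thyroid hormone and glucocorticoids, at 254, 242, 531 and 459 counts and log2 ratios of 1.17 (0.95 to 1.39) and 0.91 (0.69 to 1.14), the second under 2-fold. Thra, the receptor gene of skeletal muscle, gave 0.53 (0.41 to 0.65) and 0.11 (-0.01 to 0.24). The adrenergic and cyclic AMP list had 0 of 10 called in either comparison (11.6% and 8.36% of all genes), with medians of 0.09 and 0.02.

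Transcription factors and coregulators of brown fat had medians of 0.51 and 0.34. With calcifediol 3 of 14 tested genes were higher (5.28% of all genes) and with calcitriol 1 (4.43%). Among them Esrrg reached a TPM of 1 only in the calcifediol library and Ppargc1a only in the calcitriol library, so each passed the filter through the library in which it was called. Esrrg, an orphan receptor of oxidative muscle, read 4, 4, 48 and 5 counts. Pparg, the adipogenic nuclear receptor, read 110, 95, 279 and 189 and Cebpb 860, 1104, 2540 and 1522. The log2 ratios to olanzapine with calcifediol were 3.46 (2.17 to 5.55), 1.58 (1.25 to 1.94) and 1.24 (1.13 to 1.34). Ppargc1a read 20, 22, 42 and 45 and was called with calcitriol at 1.01 (0.26 to 1.83) but not with calcifediol at 0.95 (0.19 to 1.78). Both counts of Ppargc1a and Esrrg were low, and the side of the threshold on which Ppargc1a fell turned on 3 counts between the co-treated libraries.

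Brown and beige fat markers had 3 of 10 higher with calcifediol (5.28% of all genes) and 2 with calcitriol (4.43%). Their medians were 0.36 and 0.19. Cox7a1 read 33, 32, 90 and 107 counts, Cox8b 168, 160, 435 and 315 and Cited1 8, 6, 18 and 92. Cox7a1 and Cox8b are also subunits of oxidative muscle fibres. Of 7 genes of heat production without UCP1, all had ratios above 0 in both comparisons and 1 was called, Ckmt2, the mitochondrial creatine kinase of striated muscle, at 13, 14, 92 and 86 counts and log2 ratios of 2.71 (1.93 to 3.68) and 2.57 (1.78 to 3.54). The elongases had 0 of 4 called, with medians of -0.26 and -0.32. Over the 7 lists together, members included, 12 of 60 tested genes were called with calcifediol, where 11.6% of all genes were. With calcitriol 7 of 60 were called, where 8.36% of all genes were.

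Markers of other cells moved in part with these values. Fabp4, a fatty acid binding protein of adipocytes, read 0 counts with vehicle and with olanzapine, 86 with calcifediol and 40 with calcitriol, at least 29.4-fold and 13.2-fold above olanzapine by the limit of 3 counts per library. The other 3 adipocyte markers listed in C2C12 cells, Adipoq, Plin1 and Lep, summed to at most 1 count in a library. Of the 5 macrophage markers listed, Cd68 read 42, 33, 124 and 69 counts and Ptprc 0 in all 4 libraries. The 7 myotube markers had 0 calls with either metabolite, with medians of -0.02 and -0.01, and the fibroblast and preadipocyte markers had 0 of 4 tested genes called with calcifediol and 1 lower with calcitriol. The part of these genes in the results was not tested.

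In adipocytes 1 of the 75 tested genes of the 7 lists was called with olanzapine, Ucp1 (1.22% of all genes), 0 of 75 with calcifediol (1.52%) and 0 of 75 with calcitriol (0.974%). Ucp1 passed the filter only through libraries where it was high, so its call adds no support. The median log2 ratio of the transcription factors and coregulators was 0.17 with olanzapine against vehicle, beside -0.03 over all genes, and -0.12 with calcifediol against olanzapine, beside -0.01. Both comparisons share the olanzapine library.

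The genes whose log2(CPM + 0.5) followed each member most closely were taken from 10868 genes over the 12 libraries, and for Prdm16, which C2C12 cells did not list, from 10367 genes over 8. The points share cell type and treatment, so the coefficients describe these libraries only. Slc6a2, the noradrenaline transporter, followed Dio2 at a Pearson r of 0.999 and read 7.28, 5.82, 89.8 and 90.4 CPM in C2C12 cells. Tmem229b and Aldh3b1 came next at 0.995 and 0.994. After centring on each cell type, so that treatment differences alone counted, Apcdd1, Slc6a2 and Srcin1 stood closest to Dio2, each at 0.995. Srcin1 read 0.217, 0, 37.7 and 38.1 CPM in C2C12 cells, so it shared the rise with both metabolites.

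For Ucp3 the closest after centring was Crat, carnitine acetyltransferase of the mitochondria, at 0.981. It read 586, 636, 709.9 and 734 CPM in adipocytes and 87.5, 83.7, 168 and 147 CPM in C2C12 cells, in both cases highest with the metabolites. For Ucp2 it was Actg1, a cytoplasmic actin, at 0.985, with 4126, 4253, 1830.1 and 2617 CPM in C2C12 cells and 708 to 746 CPM in adipocytes. Uncentred, the closest were Mindy2 for Ucp3 (0.995), Trabd2b for Ucp2 (0.997), Agpat2 for Adrb3 (0.999), Rims4 for Ebf2 (1.0), Tnxb for Elovl3 (0.999) and, over the 8 libraries of hepatocytes and adipocytes, Mbd6 for Prdm16 (1.0). These uncentred values mostly followed the difference between cell types. Ucp1 reached 1 CPM in 2 libraries only and was not compared.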

How the data were processed

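Poly(A) RNA of the 12 cultures was sequenced on DNBseq. Reads were filtered with SOAPnuke and aligned by the authors to the GRCm38.p6 genome with both HISAT 2.0.4 and Bowtie 2.2.5, and RSEM 1.2.8 estimated expression. Per the file headers the deposited tables hold expected counts, which are not scaled between libraries. They also hold FPKM, which the authors scaled to gene length and mapped reads. The 12 TPM columns were not used, and TPM was recomputed from the deposited FPKM. Of the symbols, 23 or 24 a table had been turned into dates and were restored from gene IDs, none of them among the 8. The annotation release and the use of strand in counting are not given in the sources used here.

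Expected counts were rounded and scaled to total counts of the library, with a pseudocount of 0.5 in log2 ratios. RSEM shares reads of similar genes out by estimate, which adds an error that counting intervals leave out. Pairs of libraries were compared with the Audic-Claverie test (two-sided, Benjamini-Hochberg over all genes that reached a TPM of 1 in one or more of the 4 libraries of that cell type) and exact Clopper-Pearson 95% intervals. The test and both thresholds follow the study's methods, in an implementation of its own, but the filter does not: the study kept genes by their TPM with vehicle, under which Ucp3 in C2C12 cells (0.839 TPM) would not have been tested. The additive model of cell type and treatment used edgeR 4.0.16 on genes listed in all 3 tables, with TMM factors and its default filter on low counts, and called genes at an FDR of at most 0.05 (between cell types also a fold of at least 2). Alternatives used DESeq2 1.42.0 and limma 3.58.1, other scalings, filters and thresholds, and each treatment or cell type left out. Python 3.11.15, scipy 1.17.1 and R 4.3.3 were used.

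The 8 genes, the gene lists and the tests were chosen with earlier results of these data known. Named besides the 8 are family relatives, up to 3 called genes of each list per comparison, the most abundant list genes and the 3 genes most alike each member. Adipoq, Plin1, Cfd, Lep and Ptprc were named outside this rule, after their values were seen. Sequences came from RefSeq (GRCm38.p6) and overlaps of genes from GENCODE M21. On simulated data the pairwise test called 93% to 99% of genes changed 3-fold in the 9 comparisons, on 10963 to 12124 genes, and edgeR 97.5% between adipocytes and hepatocytes on 13105 genes. The data simulated for the pairwise test held counting error only, and those for edgeR a fixed variation between libraries. The shares of the pairwise test therefore do not cover variation between cultures. No sample was left out.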

Additional observations from a re-analysis of the deposited data

Results flagged for a closer look

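Ucp2 responded to the vitamin D metabolites in opposite directions in adipocytes and C2C12 cells, each 95% counting interval lying on its own side of 0. With calcifediol against olanzapine the log2 ratio was 0.09 in adipocytes and -1.42 in C2C12 cells, a difference of 1.51, and with calcitriol it was 0.17 and -0.79, a difference of 0.96. This difference was not tested, since each condition had 1 library per cell type. The adipocyte ratios turned negative, to -0.27 and -0.029, with scaling to Rplp0. The other members tested in adipocytes and C2C12 cells or hepatocytes showed no such pair of intervals, and groups of 1 library could not be screened for outlying samples.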

How the results depend on the processing

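No paired analysis was possible because each condition had 1 library per cell type and the labels give no replicate numbers. With calcifediol log2 ratios in C2C12 cells ran from 4.62 to 4.79 for Dio2, 2.05 to 2.43 for Ucp3 and -1.51 to -1.39 for Ucp2. With calcitriol they ran from 4.33 to 4.66, 1.82 to 2.38 and -0.81 to -0.61. These ranges cover the alternatives in which each could be computed, with the olanzapine or the vehicle library as the reference. The lower ends for Dio2 and Ucp3 are the ratios to vehicle. With a TPM of at least 10, which removes Ucp3 from testing, 1 member was called with calcitriol. With a fold of 1.5 Ucp2 was called there too.

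In adipocytes the count of members called with olanzapine fell from 1 to 0 with TMM factors, median-of-ratios factors, Rplp0 scaling, no filter, a TPM of at least 10 and an FDR of 0.001. With vehicle as the reference of calcitriol the count was 1, Ucp1 at -1.49. For a response shared by cell types the count rose from 0 to 1 without the filter on low counts with each metabolite and, with calcitriol, without TMM factors. Leaving out each treatment or cell type in turn gave 0 to 1 with either metabolite, the 1 being Dio2. This was the case for calcifediol when the adipocyte libraries were left out, and for calcitriol when the calcifediol libraries were. Dio2 was not tested without the C2C12 libraries. Without the hepatocyte calcitriol library, an alternative added after seeing the data, no count of members called changed.

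Log2 ratios that turned sign stayed under 2-fold. In adipocytes with olanzapine these were Elovl3 (0.027 with TMM and 0.028 with median-of-ratios factors, 0.37 with Rplp0, 0.057 from FPKM) and Adrb3 (0.013, 0.014, 0.36 and 0.066). Rplp0 scaling moved the median of all genes there by 0.38. With calcifediol they were, under Rplp0, Elovl3 (-0.22), Adrb3 (-0.27), Ucp3 (-0.36) and Ucp2 (-0.27), Ucp3 also from FPKM (-0.079), and, against vehicle, Ucp1 (-0.34) and Ebf2 (0.22). With calcitriol they were Ebf2 (0.0050 with TMM, 0.0075 with median-of-ratios factors, 0.38 against vehicle), Adrb3 (-0.11) and Ucp2 (-0.029) under Rplp0, and Prdm16 against vehicle (0.094). Ucp2 in C2C12 cells with olanzapine gave -0.027 under Rplp0 and -0.0085 from FPKM. Hepatocytes gave Adrb3 -0.061 with calcifediol against vehicle and Ucp2 0.0096 under Rplp0 and 0.0011 from FPKM with calcitriol. In all, 300 of 336 alternative values of members kept both sign and call or, from FPKM, kept the sign and lay within the counting interval. Other thresholds and filters leave the ratio itself unchanged, so part of this count was fixed in advance. FPKM gave ratios without a test.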
